A study of Homo sapiens with 6 samples.

Results

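The genes described here encode the proteins of the cytosolic ribosome. They were taken by name from the deposited table: protein-coding genes whose symbol has the form of RPL, RPS or RPLP with a number, with the suffixes A, X, L or a digit, together with RPSA. The rule found 85 of 58735 genes, of which 46 encode large subunit proteins, 31 small subunit proteins and 8 are paralogues with an L in the name after the parent's number, such as RPL22L1 and RPS27L. It used names alone and no measured value. RNA was sequenced from HUCCT1, an established human cell line from a cholangiocarcinoma (a cancer of the bile ducts), with the tissue labelled bile duct. The treated group, siC1QBP, comprised 3 libraries of cells that received a small interfering RNA (siRNA) directed at C1QBP. The control group, siNC, comprised 3 libraries of cells that received the control siRNA and also carried the label wt. Per the labels, RNA came from RNeasy columns and the libraries from a NEBNext Ultra Directional kit. The sources used here give neither the siRNA dose nor the time after it, and do not say that replicates were separate cultures. Each test below therefore sets the groups against the scatter among these libraries, which could be technical.

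The ribosome translates mRNA into protein. Its small subunit reads the mRNA and its large subunit joins the amino acids, and each ribosome takes up a single copy of most ribosomal proteins, so cells make these proteins in matched amounts. Nearly all vertebrate ribosomal protein mRNAs begin with a cytosine followed by a run of pyrimidines, the 5′ terminal oligopyrimidine (TOP) motif, through which the RNA-binding protein LARP1 and the kinase complex mTORC1 control their translation and stability. C1QBP is a protein mainly of the mitochondrial matrix, and the title of the series places it in a loop with PAICS, FAK and c-Myc. MYC is a transcription factor known for raising the expression of ribosomal protein genes.

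A run of pyrimidines can be looked for near RefSeq start sites. The tables used here held a promoter for 68 of the 85 genes. The windows below, on build GRCh38.p14, run from 10 bases before the RefSeq start to the 20 bases from the start, and capitals mark the longest run of C and T on the gene's strand that reaches within 10 bases of the start. They show 4 genes that fell in siC1QBP libraries (RPL24, RPS23, RPL39 and RPL41) and the gene that rose (RPL28). They also show a fallen gene without such a run at the start used (RPS29), and 2 paralogues beside their parents. A single RefSeq start was taken per gene, and other starts of the same gene were not examined. RPL24 is read on the minus strand at chr3:101686699-101686728, RPS23 on the minus strand at chr5:82278335-82278364, RPL39 on the minus strand at chrX:119791611-119791640 and RPL41 on the plus strand at chr12:56116623-56116652. RPL28 is on the plus strand at chr19:55385922-55385951 and RPS29 on the minus strand at chr14:49598691-49598720. RPL22 is on the minus strand at chr1:6199576-6199605, RPL22L1 on the minus strand at chr3:170870176-170870205, RPS27 on the plus strand at chr1:153990752-153990781 and RPS27L on the minus strand at chr15:63157458-63157487.
RPL24: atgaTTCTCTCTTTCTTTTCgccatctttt
RPS23: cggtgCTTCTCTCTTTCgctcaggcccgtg
RPL39: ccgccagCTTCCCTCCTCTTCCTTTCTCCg
RPL41: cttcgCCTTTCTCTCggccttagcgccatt
RPL28: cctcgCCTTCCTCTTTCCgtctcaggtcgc
RPS29: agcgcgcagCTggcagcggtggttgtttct
RPL22: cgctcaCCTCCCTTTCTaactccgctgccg
RPL22L1: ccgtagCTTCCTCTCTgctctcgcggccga
RPS27: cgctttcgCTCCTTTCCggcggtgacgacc
RPS27L: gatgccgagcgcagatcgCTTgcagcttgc

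The run was longest in RPL39 among these, at 22 bases, and reached 16 bases in RPL24, 13 in RPL28 and 12 in RPS23. RPS29 and RPS27L held runs of 2 and 3 bases at the start used. A run of at least 8 bases was found in 53 of the 68 genes (77.9%) and in 14.8% of the 14828 other promoters in the table. The median length of the longest run was 11 bases against 4. A counted run could lie wholly before the start, as in RPL19 (positions -11 to -1), or wholly after it, as in RPS27A (positions 10 to 18). These are therefore not counts of the TOP motif, and a cytosine as the first base was not looked for.

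Total counts per library were 17122252 to 18847340 for siC1QBP and 18313264 to 20416243 for siNC, so that 0 counts in a library allow up to 0.147 to 0.175 CPM, the level of 3 counts, for counting error alone. CPM here are counts scaled to a common library size with TMM factors, which centre most genes between libraries. The siRNA target checked the labels. C1QBP stood at 59.1, 57.6 and 60.0 CPM in siC1QBP replicates 1, 2 and 3 and at 175, 181 and 185 CPM in siNC replicates 1, 2 and 3, a log2 fold change of -1.61 (SE 0.05, edgeR adjusted p = 1.39e-12), while the exact two-sided permutation test on CPM gave p = 0.1, the smallest that 3 against 3 allows. The biliary epithelial keratins and other markers of that lineage (KRT7, KRT19, KRT8, KRT18, EPCAM and SOX9) were all tested and summed to 7480 to 7825 CPM in siC1QBP and 8299 to 8801 CPM in siNC libraries. KRT7 and KRT19 were called lower (log2 fold changes -0.26 and -0.19, edgeR adjusted p of 0.000214 and 0.00862) and the other 4 were not called; the part of these markers in the results below was not tested. In contrast, summed markers reached 6.86 CPM at most for leukocytes, 2.71 for endothelium, 0.933 for fibroblasts and 0.0525 for hepatocytes. The library siC1QBP replicate 1 stood apart from its group: the chi-square statistic per degree of freedom over genes was 6.66 and 6.77 against replicates 2 and 3, which differed from each other by 2.09. To a lesser degree siNC replicate 1 did so too, at 3.67 and 3.40 against siNC replicates 2 and 3, which differed by 2.13. Between groups, siC1QBP replicates 2 and 3 were at 7.52 and 7.12 from siNC replicate 1. Where leaving out siC1QBP replicate 1 changed a call or a direction of a gene named below, the value without it is given. Many of the larger shifts in fold change are given too. Between 4.20% and 4.80% of counts in siC1QBP libraries and between 3.66% and 3.88% in siNC libraries came from mitochondrially encoded genes, and 25001 to 25506 against 23395 to 23841 genes had a count. With mitochondrially encoded genes left out, 39 ribosomal protein genes were called lower and 1 higher, against 37 and 1 with them, and the medians were -0.14 for large and -0.18 for small subunit genes in both. The part of the number of genes with a count in the results below was not tested.

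Ribosomal protein genes were slightly but widely lower in siC1QBP cells. Of the 82 tested, 37 fell and 1 rose at an adjusted p under 0.05 (edgeR's quasi-likelihood test, Benjamini-Hochberg adjustment over all 15530 genes tested), and 44 were not called. Over all tested genes 7.84% were called lower and 6.47% higher. The median log2 fold change of the 82 genes, siC1QBP over siNC, was -0.17, against 0.00 for all tested genes, and 77 of 82 fold changes were below 0. In 49 genes every siC1QBP library lay below every siNC library and in 2 every one lay above, where 16.6% and 16.0% of all tested genes did so. Where the mean over all libraries reached 100 CPM, 32 of 72 ribosomal protein genes and 400 of 2196 other protein-coding genes were called lower. RPL3L, a muscle paralogue, had 0 to 2 counts per library, RPL39L and RPL10L had 0 in every library, and none of these 3 was tested. In bulk RNA a lower share of counts cannot be split into fewer cells with the RNA and less RNA per cell.

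**Figure D1:**
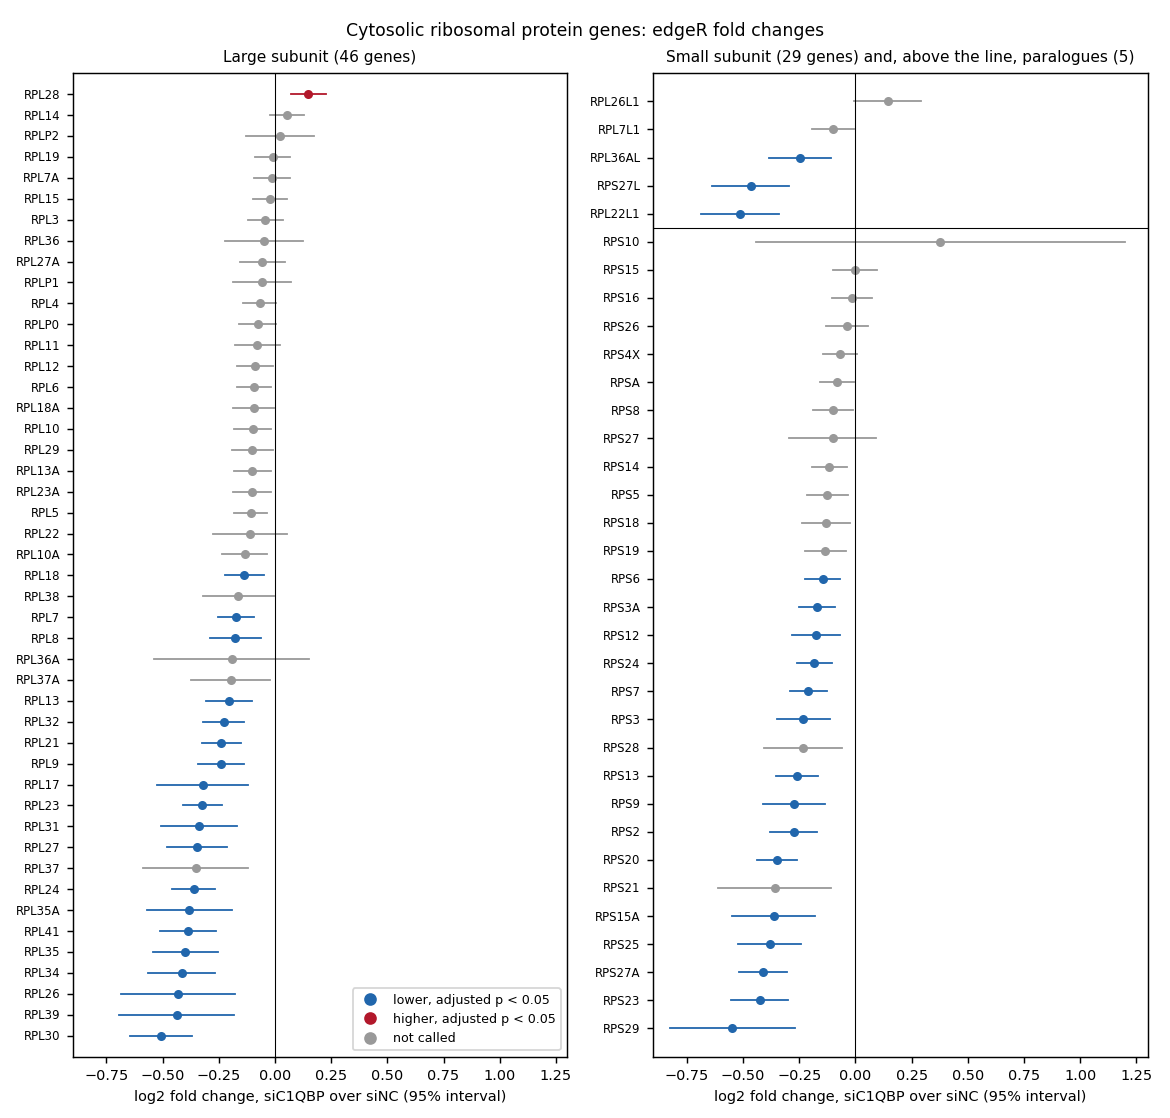
Log2 fold change (siC1QBP over siNC, x axis) with its 95% interval for 80 of the 82 tested ribosomal protein genes, large subunit genes at left and small subunit genes with 5 paralogues at right; blue marks the 37 genes called lower, red the 1 called higher and grey the 42 drawn genes not called by edgeR. Fold changes run from -0.55 for RPS29 to 0.38 for the faint RPS10, and most points lie left of 0.

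Large subunit genes had 19 members lower, 1 higher and 26 not called, with a median log2 fold change of -0.14. RPL24, a protein of the bridge between the subunits, stood at 437, 498 and 482 CPM in siC1QBP replicates 1, 2 and 3 and at 589, 632 and 601 CPM in siNC replicates 1, 2 and 3. All 3 siC1QBP values were below the lowest control. The level fell to 77.8% of control, a log2 fold change of -0.36 (SE 0.05, edgeR adjusted p = 0.000151). RPL23, which lies at the subunit interface and is also known to bind MDM2, was at 868, 830.1 and 797 CPM against 991, 1064 and 1066 CPM. Here replicate 1 was the highest of the siC1QBP libraries, and the groups again did not overlap (log2 fold change -0.32, SE 0.04, adjusted p = 0.000155 by edgeR). RPL30 moved most among large subunit genes, from 291, 335 and 328 CPM in siNC to 194, 239.8 and 238 CPM in siC1QBP. It fell to 70.4% of control, a log2 fold change of -0.51 (SE 0.07, adjusted p = 0.000181 by edgeR).

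RPL41 encodes the shortest protein of the ribosome, a basic peptide between the subunits. It held the highest level per kilobase of deposited gene length of all 85 genes (764 CPM per kb in siNC) and was at 551, 695 and 662 CPM in siC1QBP against 796, 850.1 and 849 CPM in siNC. Each siC1QBP library lay below each control, with replicate 1 the lowest (log2 fold change -0.39, SE 0.06, adjusted p = 0.000778 by edgeR). RPL34 went from 338, 376 and 385 CPM to 230.3, 301 and 293 CPM, a log2 fold change of -0.42 (SE 0.08). RPL35, at the mouth of the tunnel through which the new protein leaves, went from 609, 678 and 642 CPM to 408, 529.8 and 525 CPM, a log2 fold change of -0.40 (SE 0.07). Both passed the test, with edgeR adjusted p of 0.00169 and 0.0018, and in both replicate 1 was again the lowest library. Without siC1QBP replicate 1 the log2 fold changes of RPL34 and RPL35 were -0.31 and -0.29, both still called.

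RPL28 rose. This large subunit protein, which has no counterpart in budding yeast, was at 488, 495 and 501 CPM in siC1QBP and at 439, 458 and 441 CPM in siNC. The 3 siC1QBP libraries were close together and all were above the controls. The rise came to 0.15 on the log2 scale (SE 0.04, adjusted p = 0.018 by edgeR), and its start site carries a pyrimidine run much like that of the genes that fell. The call did not survive the loss of any library other than siC1QBP replicate 1, with adjusted p up to 0.11. RPL14 was the other gene whose siC1QBP libraries all lay above the controls (561, 542 and 553 against 533, 532 and 533 CPM), but its log2 fold change was 0.05 and its edgeR adjusted p 0.395.

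Other large subunit genes of high level did not pass the test. RPL19, another bridge protein, was at 1038, 1058 and 988 CPM in siC1QBP and 1028, 1058 and 1019.7 CPM in siNC. The groups overlapped and the log2 fold change was -0.01, with a 95% interval of -0.09 to 0.07. RPL13A, known for a role outside the ribosome in repressing inflammatory mRNAs, was at 1217, 1333 and 1296 CPM against 1329.9, 1389 and 1405 CPM (log2 fold change -0.10, adjusted p = 0.124; -0.07 without siC1QBP replicate 1). RPL3 and RPL10, which lie near the site where peptide bonds form, had log2 fold changes of -0.04 and -0.10 and were not called. Just inside the threshold were RPL18 and RPL8, with edgeR adjusted p of 0.046 and 0.0487. RPL37 was just outside it, at 0.0567. Without siC1QBP replicate 1 the log2 fold change of RPL8 went from -0.18 to -0.11, still called, and that of RPL37 from -0.35 to -0.16, now called (edgeR adjusted p = 0.0125).

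The stalk of the large subunit, which recruits elongation factors, is built of RPLP0, RPLP1 and RPLP2. RPLP0 was at 1859, 1781 and 1749 CPM in siC1QBP and 1793, 1951 and 1941 CPM in siNC, RPLP1 at 849, 1070.0 and 1027 CPM against 959, 1050.0 and 1056 CPM, and RPLP2 at 332, 444 and 440.2 CPM against 389, 413 and 395 CPM. The groups overlapped in all 3, and none was called (log2 fold changes -0.08, -0.06 and 0.02). In RPLP2 replicate 1 lay below every control while replicates 2 and 3 lay above them. Without siC1QBP replicate 1 the log2 fold change of RPLP2 was 0.15 (SE 0.03) and it was called higher (edgeR adjusted p = 0.0048), and RPLP0 was called lower, at -0.10 (adjusted p = 0.026). RPLP1 turned to 0.04 there and was not called.

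RPL5 and RPL11 join the 5S ribosomal RNA in a particle that, when free of the ribosome, binds the ubiquitin ligase MDM2. RPL5 was at 726, 743 and 744 CPM in siC1QBP and 784, 803 and 797 CPM in siNC. These groups did not overlap, but the log2 fold change of -0.11 (SE 0.04) gave an edgeR adjusted p of 0.0665. DESeq2 did call RPL5, with an adjusted p of 0.0122, as did edgeR without siC1QBP replicate 1 (log2 fold change -0.10, adjusted p = 0.025). RPL11 overlapped between groups, with a log2 fold change of -0.08 (SE 0.05) and, without that library, -0.03.

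Small subunit genes had 15 members lower, none higher and 16 not called, with a median log2 fold change of -0.18. RPS20 gave the smallest p of all ribosomal protein genes. It was at 438, 477 and 458 CPM in siC1QBP and 557, 607 and 585 CPM in siNC, a log2 fold change of -0.35 (SE 0.05, edgeR adjusted p = 0.000107). RPS27A is made as a fusion with ubiquitin, so its mRNA supplies both proteins. It was at 538, 602 and 591 CPM against 701, 806 and 794 CPM, and each siC1QBP library lay below the lowest control. It fell to 75.3% of control (log2 fold change -0.41, SE 0.05, adjusted p = 0.000134 by edgeR). RPS23, which reaches into the decoding centre and bears on the accuracy of translation, was at 312, 386 and 362 CPM against 445, 508 and 471 CPM. It fell to 74.4% of control, a log2 fold change of -0.43 (SE 0.06, adjusted p = 0.000383 by edgeR).

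RPS13 went from 363, 389 and 378 CPM in siNC to 296, 331 and 316 CPM in siC1QBP, a log2 fold change of -0.26 (SE 0.05). RPS25, needed by several viral internal ribosome entry sites, went from 697, 739 and 750.1 CPM to 469.7, 598 and 608 CPM, a log2 fold change of -0.38 (SE 0.07). RPS2, at the channel where mRNA enters, went from 1058, 1233 and 1232 CPM to 923, 984 and 1004 CPM, a log2 fold change of -0.27 (SE 0.05). No library of one group reached the other group in these 3 genes, and their edgeR adjusted p were 0.00169, 0.00183 and 0.00263. Without siC1QBP replicate 1 the log2 fold change of RPS25 was -0.27, still called. RPS6, the substrate after which the S6 kinases are named, fell less, from 1082, 1093 and 1046 CPM to 933, 989 and 989 CPM (log2 fold change -0.15, SE 0.04, edgeR adjusted p = 0.0207). Its call was lost in 6 alternatives, among them both other scalings of library size and the removal of the length trend, with an adjusted p of up to 0.13.

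The deepest fall among all ribosomal protein genes was that of RPS29, which is named here after its values were seen. Its product is a small zinc-binding protein. RPS29 was at 70.5, 130.2 and 129.9 CPM in siC1QBP and 162, 157 and 165 CPM in siNC. Replicate 1 was at 0.542 times the mean of replicates 2 and 3, and all siC1QBP libraries were below the controls. Its log2 fold change of -0.55 (SE 0.14) passed with an edgeR adjusted p of 0.0156 and became, without siC1QBP replicate 1, a change of -0.31 (SE 0.04). The call was lost without siNC replicate 2 or 3 and with DESeq2, where the adjusted p reached 0.18.

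Small subunit genes that were not called included RPS18 and RPS27, the highest of them per kilobase. RPS27 was at 319, 477 and 462 CPM in siC1QBP against 425, 472 and 454 CPM in siNC. Only replicate 1 was low, the groups overlapped, and the log2 fold change was -0.10 (SE 0.10). RPS18 was at 735, 878 and 854 CPM against 873, 914 and 919 CPM, with a log2 fold change of -0.13 (SE 0.05, edgeR adjusted p = 0.114). Without siC1QBP replicate 1 the log2 fold change of RPS27 was 0.06 and that of RPS18 -0.06, and neither was called. RPSA, which is also known as the laminin receptor precursor, had a log2 fold change of -0.08 (SE 0.04). RPS19, the gene most often mutated in Diamond-Blackfan anaemia, was just outside the threshold with an edgeR adjusted p of 0.0609.

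**Figure D2:**
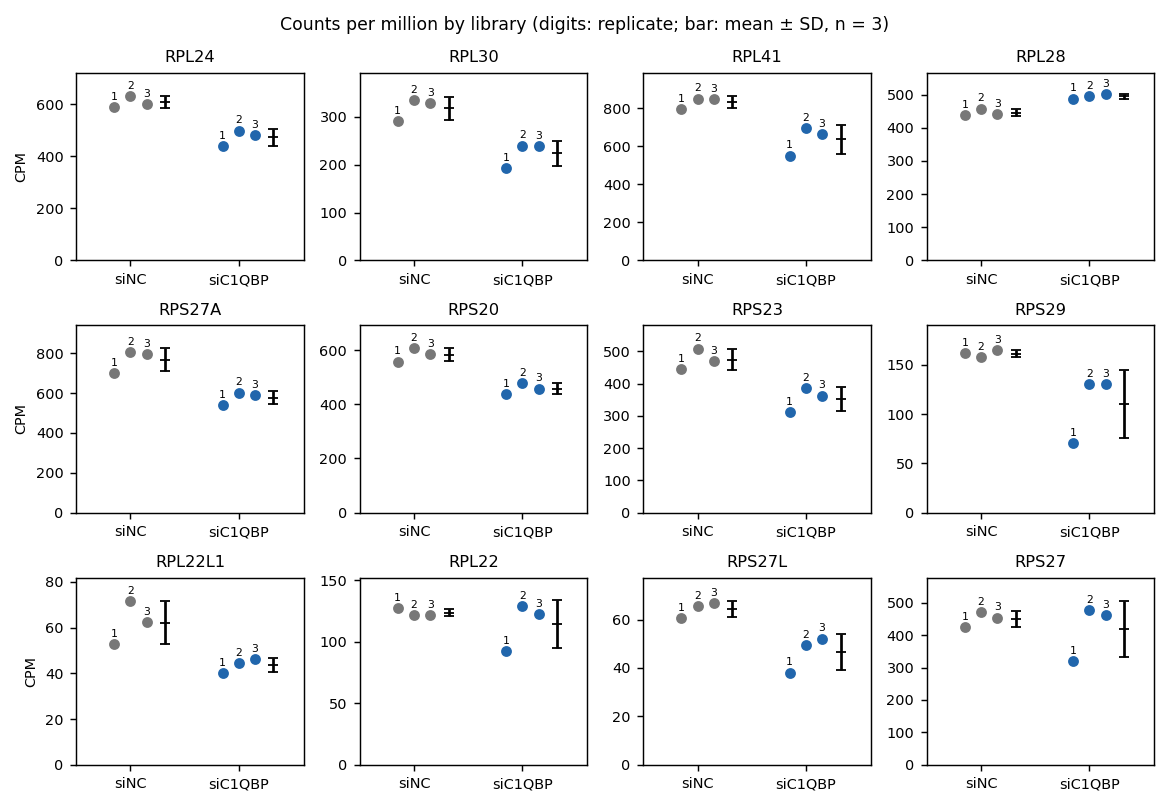
CPM of 12 ribosomal protein genes in each library (y axis from 0; digits give the replicate), grey for siNC and blue for siC1QBP, with the mean ± SD of 3 libraries as a bar. RPL28 has siC1QBP libraries above the controls, the other genes have means below them, and in RPS29 replicate 1 sits at 70.5 CPM beside 130.2 and 129.9 CPM.

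The paralogues are near copies of a ribosomal protein that can take its place in some cells. Of the 5 tested, 3 fell, none rose and 2 were not called. RPL22L1 was at 40.2, 44.4 and 46.2 CPM in siC1QBP and 52.7, 71.4 and 62.2 CPM in siNC, with no overlap (log2 fold change -0.51, SE 0.09, edgeR adjusted p = 0.00114). Its parent RPL22, an RNA-binding protein known to restrain RPL22L1 expression, was at 92.6, 129 and 122 CPM against 127, 122 and 122 CPM and was not called (log2 fold change -0.11, SE 0.08, and 0.02 without siC1QBP replicate 1). RPS27L was at 38.1, 49.3 and 52.1 CPM against 60.6, 65.7 and 66.7 CPM, a log2 fold change of -0.47 (SE 0.09, edgeR adjusted p = 0.00197). Without siC1QBP replicate 1 the log2 fold change of RPS27L was -0.34, still called. Both paralogues were called and their parents were not, which by itself does not show that a paralogue moved apart from its parent.

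Whether a paralogue moved apart from its parent was compared through the ratio of their levels per kilobase, over 5 pairs. The size of such a ratio depends on the deposited gene lengths, which are 9127 bases for RPS27L and 1035 for RPS27, though both have 252 coding bases. Their siNC means were 64.3 and 450 CPM. The comparison between groups does not depend on length. Per kilobase, RPS27L stood at 1.35%, 1.17% and 1.28% of RPS27 in siC1QBP replicates 1, 2 and 3 and at 1.62%, 1.58% and 1.66% in siNC. These values did not overlap, and the two-sided exact permutation test gave the smallest p that 3 against 3 allows, 0.1 (0.25 adjusted over the 5 pairs). RPL26L1 moved the other way, at 361%, 284% and 264% of RPL26 against 179%, 195% and 229.8%, also without overlap and with the same exact permutation p of 0.1 (0.25 adjusted). Another annotated gene on the same strand overlaps 59.0% of the principal transcript of RPL26, so the level of RPL26 and this ratio are uncertain. RPL22L1 stood at 87.4%, 69.4% and 76.0% of RPL22 against 83.5%, 118% and 103%, and these overlapped (exact permutation p = 0.2, adjusted 0.333). RPL36AL fell, with a log2 fold change of -0.25 (SE 0.07, edgeR adjusted p = 0.0263), while RPL7L1 and RPL26L1, with log2 fold changes of -0.10 and 0.14, were not called. RPL7L1 was called lower without siC1QBP replicate 1, at -0.15 (edgeR adjusted p = 0.0137). RPL36AL was no longer called when siNC replicate 2 was left out, where edgeR gave an adjusted p of 0.179. Its call was also lost with library size scaling and with a filter of at least 10 CPM in 3 libraries. No pair could reach an adjusted p under 0.05 in this design.

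The siC1QBP libraries were not equally low. Ribosomal protein genes took 4.29%, 4.81% and 4.72% of all counts in siC1QBP replicates 1, 2 and 3 and 4.87%, 5.18% and 5.12% in siNC replicates 1, 2 and 3. Each siC1QBP share lay below each control share, but siC1QBP replicate 2 came close to siNC replicate 1. The median deviation of large subunit genes from their mean over the 6 libraries, on the log2(CPM + 0.5) scale, was -0.17, -0.01 and -0.03 in siC1QBP and 0.03, 0.12 and 0.08 in siNC. For small subunit genes it was -0.21, -0.03 and -0.05 against 0.02, 0.12 and 0.10. Replicate 1 was therefore the lowest library of its group and siNC replicate 1 the lowest control. Summed CPM of large subunit genes were 1.79, 1.75 and 1.75 times those of small subunit genes in siC1QBP and 1.71, 1.70 and 1.70 times in siNC.

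**Figure D3:**
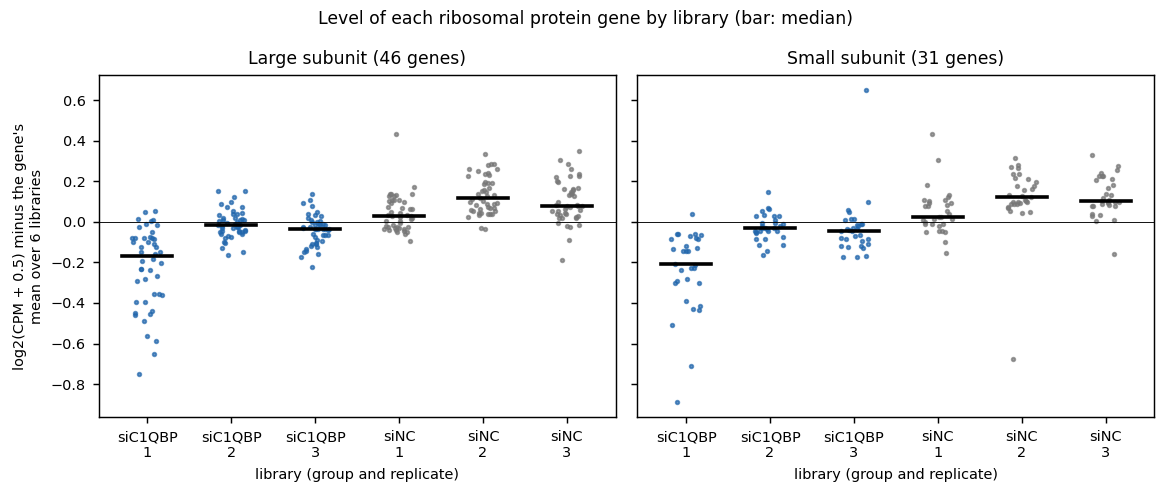
Each point is 1 ribosomal protein gene in 1 library, plotted as log2(CPM + 0.5) minus that gene's mean over 6 libraries (y axis) for siC1QBP (blue) and siNC (grey) replicates, with large subunit genes at left, small subunit genes at right and medians as bars. The median of siC1QBP replicate 1 is -0.17 and -0.21, against -0.05 to -0.01 in replicates 2 and 3, and its points spread further down.

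Without siC1QBP replicate 1, 44 genes were called lower and 2 higher (RPL28 and RPLP2), and the medians were -0.10 for large and -0.13 for small subunit genes, while 9.20% of all tested genes were called lower. The higher count thus came with a higher share over the whole table, and the medians were nearer to 0. RPL24, RPL30 and RPL41 kept log2 fold changes of -0.31, -0.41 and -0.30 there. Controls mattered for the count as well: 21 genes were called lower without siNC replicate 2 and 23 without siNC replicate 3, where the share over all tested genes also dropped, to 3.64% and 3.87%. Of the 38 calls, 20 held with each library left out in turn, among them RPL23, RPL24, RPL30, RPL34, RPL35, RPL41, RPS2, RPS13, RPS20, RPS23, RPS25, RPS27A, RPL22L1 and RPS27L.

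Genes with a short coding sequence had the larger changes in the large subunit. The tested genes at or below the median coding length of 453 bases had 22 of 42 lower and a median log2 fold change of -0.24, against 15 of 40 and -0.11 for the longer ones. Most of this lay in the large subunit, with 11 of 21 against 8 of 25 lower and medians of -0.32 and -0.10. In the small subunit 8 of 17 short and 7 of 14 long genes were lower, with medians of -0.18 and -0.15. Across the 82 genes the Spearman correlation of the fold change with coding length was 0.44, a description over genes that share the same 6 libraries. In siC1QBP replicate 1 alone, the level relative to the mean of replicates 2 and 3 followed coding length with a Spearman correlation of 0.67. Without siC1QBP replicate 1 the correlation of fold change with coding length was 0.21, and the medians were -0.17 for the shorter and -0.09 for the longer genes. With both libraries numbered 1 left out, an alternative added after seeing the data, calls were more frequent among the longer genes (32 of 40) than the shorter (26 of 42), with medians of -0.12 and -0.19. Calls also rose over the whole table there, with 12.1% of all tested genes lower against 7.84% in the planned fit.

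The 10 tested genes with at most 300 coding bases show this library most plainly. They are RPL37, RPL37A, RPL38, RPL39, RPL41, RPS21, RPS27, RPS27L, RPS28 and RPS29. Their median deviation was -0.47, 0.04 and 0.02 in siC1QBP replicates 1, 2 and 3 and 0.09, 0.24 and 0.22 in siNC. In all 10, siC1QBP replicate 1 was the lowest of the 6 libraries, and its level was a median of 0.694 times the mean of replicates 2 and 3. RPL39, whose protein lines the exit tunnel, was at 183, 315 and 308 CPM in siC1QBP and 332, 368 and 392 CPM in siNC (log2 fold change -0.44, SE 0.13, edgeR adjusted p = 0.0334), and -0.23 without siC1QBP replicate 1. The call of RPL39 was lost with DESeq2 (adjusted p = 0.221) and without siNC replicate 2 or 3. It was also lost with library size scaling and with a filter of at least 10 CPM in 3 libraries. The median log2 fold change of the 10 was -0.36 with 4 called lower, and -0.15 with 6 called lower when siC1QBP replicate 1 was left out. In these 2 fits 7.84% and 9.20% of all tested genes were called lower. RPS21 was not called with that library (edgeR adjusted p = 0.0717) and was called lower without it (0.0154). The log2 fold change went from -0.20 to -0.05 in RPL37A, from -0.16 to -0.04 in RPL38 and from -0.23 to -0.10 in RPS28, none called either way.

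**Figure D4:**
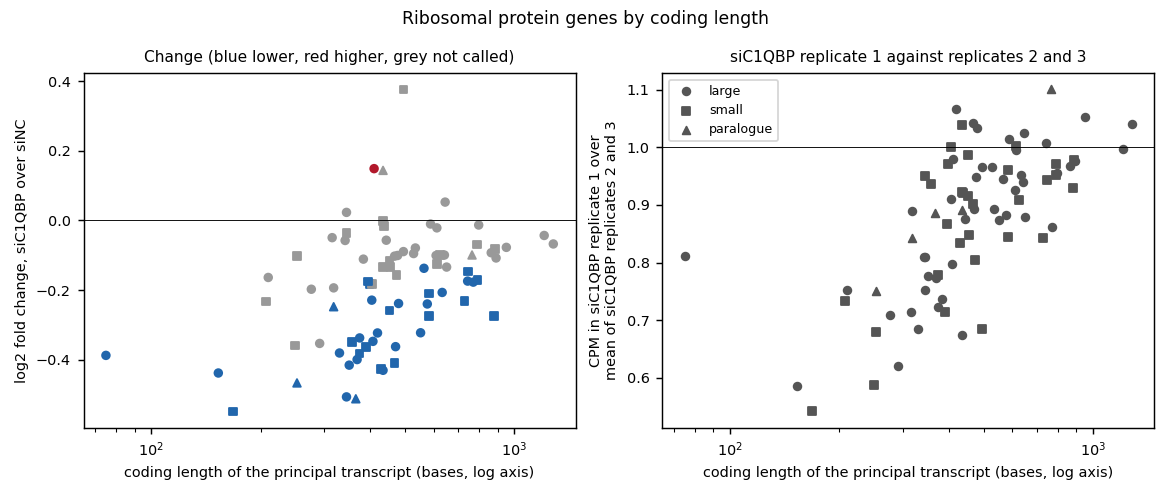
Left, log2 fold change of each tested ribosomal protein gene (siC1QBP over siNC) against the coding length of its principal transcript in bases (log axis), blue for called lower, red for called higher; right, CPM in siC1QBP replicate 1 over the mean of replicates 2 and 3 against the same length, with markers for subunit. Short genes lie lower in both panels, with Spearman correlations of 0.44 at left and 0.67 at right.

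The deposited gene length, which the authors give for each gene and which matched the union of all annotated exons in GENCODE release 29, did not order the changes in the same way. Genes at or below the median length of the tested ribosomal protein genes had 19 of 41 lower and those above it 18 of 41, with medians of -0.16 and -0.18, and the Spearman correlation with the fold change was -0.02. Over all other tested genes the share called lower went from 11.2% in the shortest quintile of gene length to 3.10% in the longest. Higher calls went the other way, from 90 of 3083 genes in the shortest to 396 of 3101 in the longest. Ribosomal protein genes were called lower in 10 of 24, 13 of 26, 5 of 15, 6 of 12 and 3 of 5 genes from the shortest to the longest of these quintiles. With each library's trend on gene length removed, 32 were called lower, with medians of -0.10 for large and -0.14 for small subunit genes. With the trend on principal transcript length removed instead, an alternative added after seeing the data, 33 were called lower and the medians were -0.09 and -0.13.

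**Figure D5:**
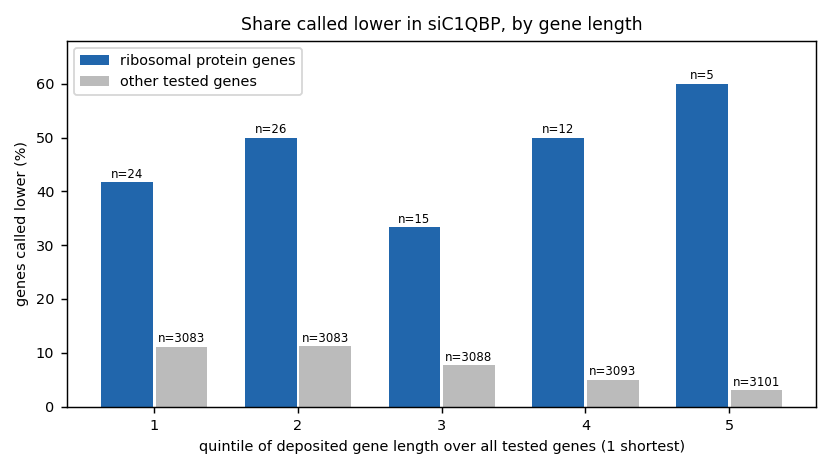
Share of genes called lower by edgeR (y axis, percent) in each quintile of deposited gene length over all tested genes (x axis, 1 shortest), blue for ribosomal protein genes and grey for other tested genes, with the number of genes above each bar. Other genes go from 11.2% to 3.10%, while ribosomal protein genes have 10 of 24 at the left and 3 of 5 at the right.

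Levels per kilobase of deposited gene length spanned a wide range among the 82 tested genes. In siNC libraries RPL41 (764 CPM per kb), RPL8 (750 CPM per kb), RPS12 (636 CPM per kb), RPL19 (588 CPM per kb) and RPL13A (580 CPM per kb) led. This order depends on the length used. Per kilobase of coding length RPL41 still led, but RPL10 (3260 CPM per kb) and RPLP1 (2988 CPM per kb) stood above RPL8 (2100 CPM per kb). By deposited length RPS10 (0.434 CPM per kb) and RPL36A (1.21 CPM per kb) were at the low end. Both of them, RPL17 and RPL26 are among the 5 genes with over 50% of the principal transcript shared with another annotated gene on the same strand. The overlapping loci themselves held 0 or 1 count in any library. Levels and fold changes of these 5 genes are uncertain, and the calls of RPL17 and RPL26 were lost without siC1QBP replicate 1 (edgeR adjusted p of 0.1 and 0.0727) and in other alternatives, 11 in all for RPL17 and 7 for RPL26.

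Many ribosomal protein genes have processed pseudogenes whose reads cannot always be told from theirs. The table held 1144 pseudogenes named after a member, whose counts came to 3.96% of those of the 85 genes. The pseudogenes held 408% of the gene's own counts for the faint RPS10, 286% for RPS28, 80.2% for RPL9, 28.5% for RPL26, 25.1% for RPS2 and 24.4% for RPL7, so these levels are uncertain. Of the 72 pseudogenes tested, 11 (15.3%) were called lower and none higher, with a median log2 fold change of -0.15. Over all tested genes 7.84% were called lower and 6.47% higher. With pseudogene reads added to their parents 37 genes were called lower, 36 of them also called without this step.

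Several ribosomal protein genes carry small nucleolar RNA genes in their introns, which guide the modification of ribosomal RNA. Of the 28 tested hosts 13 were called lower, and of the 54 others 24, with medians of -0.16 and -0.17. By the pyrimidine run near the RefSeq start, 25 of 53 tested genes with at least 8 bases were called lower (median -0.18), against 5 of 14 with a shorter run (median -0.09). Other starts of these genes, which could hold a run, were not examined.

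Other words were searched on both strands of the 300-base promoters, which reach 250 bases before and 50 after the RefSeq start. CCGGAAG, a word bound by ETS family factors, was in 33.8% of the 68 ribosomal protein promoters and in 14.3% of all other promoters. AAGATGG, a word of YY1, was in 13.2% against 6.45%. CACGTG, the E-box that MYC with MAX can bind, was in 5.88% against 8.95%, TATAAA in 10.3% against 9.37% and GGGCGG, a word of SP1, in 54.4% against 59.5%. Among tested genes with CCGGAAG 10 of 23 were called lower and among those without it 20 of 44. None of the 4 genes with CACGTG was called lower, against 30 of the 63 without it, with medians of -0.10 and -0.16. Over all tested genes 7.84% were called lower, and with only 4 genes the absence of a lower call is near that share. For AAGATGG the lower calls were 5 of 9 against 25 of 58, for TATAAA 2 of 6 against 28 of 61 and for GGGCGG 17 of 36 against 13 of 31.

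Other ribosomal proteins fall outside the name rule. Of 3 tested, 1 was called lower and none higher, with a median log2 fold change of -0.20, where 7.84% of all tested genes were called lower. Not all of them are reported here by name. FAU, a fusion of a ubiquitin-like protein with a small subunit protein, had a log2 fold change of -0.20 (edgeR adjusted p = 0.0965), and of -0.08 without siC1QBP replicate 1. RACK1, a scaffold protein on the small subunit, was at 955, 901 and 879.6 CPM against 849, 896 and 923 CPM and was not called (log2 fold change 0.04, and 0.00 without that library).

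Other mRNAs known to carry a TOP motif gave no lower call, where 7.84% of all tested genes were called lower and 6.47% higher. With so few genes, the absence of a lower call is near that share. Of 17 such genes, mostly translation factors, 16 were tested, none was called lower and 2 were called higher, with a median log2 fold change of 0.01. EIF3F, a subunit of an initiation factor, rose from 129.8, 129.9 and 127 CPM to 160.0, 161 and 154 CPM (log2 fold change 0.30, SE 0.04, edgeR adjusted p = 0.000338). NAP1L1, a histone chaperone, was called higher too, at 685, 626 and 663 CPM against 577, 540.1 and 548 CPM (log2 fold change 0.25, SE 0.04). Both genes lie in the longest quintile of gene length, where 396 of 3101 other tested genes were called higher. The abundant elongation factor EEF1A1 had a log2 fold change of 0.02. EEF1G had 0 counts in every library. Coding lengths in this list ran from 486 to 2574 bases, above the median of 453 bases for the tested ribosomal protein genes. The part of coding length in this contrast was not tested.

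Genes that control TOP mRNAs through mTORC1 and LARP1 moved in part. Of 15, 4 were called lower (RPS6KB2, EIF4EBP1, RHEB and MLST8) and 1 higher (TSC2). Over all tested genes 7.84% were called lower and 6.47% higher, so the single higher call is near that share. RPS6KB2, a kinase of RPS6, fell from 84.7, 101 and 95 CPM to 71.6, 74 and 73 CPM (log2 fold change -0.36, SE 0.06, edgeR adjusted p = 0.000974). RHEB, the activator of mTORC1, had a log2 fold change of -0.27 (SE 0.05) and TSC2, which restrains RHEB, one of 0.23 (SE 0.06). LARP1 and MTOR themselves were not called, with log2 fold changes of 0.03 and 0.08. With the trend on gene length removed TSC2 was no longer called (edgeR adjusted p = 0.187), nor was it without siC1QBP replicate 2 or siNC replicate 1 or 3.

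Among 8 factors that bind ribosomal protein promoters, MYC alone was called, at 68, 78.2 and 73.4 CPM in siC1QBP against 86.2, 85.5 and 86.7 CPM in siNC (log2 fold change -0.23, SE 0.06, edgeR adjusted p = 0.0101). Of 7 chaperones that escort new ribosomal proteins, GRWD1 was called lower (log2 fold change -0.21, adjusted p = 0.0193 by edgeR) and none higher, and GRWD1 was not called when replicate 2 or 3 of either group was left out. With so few genes, a single lower call in either list is near the 7.84% of all tested genes called lower. MDM2, the ubiquitin ligase to which RPL5 and RPL11 can bind, and its relative MDM4 rose by 0.28 and 0.29 on the log2 scale (SE 0.07 and 0.08), whereas CDKN1A, an inhibitor of the cell cycle, had a log2 fold change of -0.09 and was not called. In their list 2 of 4 genes were called higher, where 6.47% of all tested genes were. MDM2 and MDM4 lie in the longest quintile of gene length, where 396 of 3101 other tested genes were called higher. The calls of MDM2 and MDM4 were lost without siNC replicate 2, that of MDM2 also without siNC replicate 3 and that of MDM4 also without siC1QBP replicate 2.

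Mitochondrial ribosomal proteins, made in the cytosol for the separate ribosome of the mitochondrion, had 26 of 78 called lower and 1 (MRPS6) called higher, with a median log2 fold change of -0.17. The lower calls were 33.3% of the 78, where 7.84% of all tested genes were called lower and 6.47% higher. The call of MRPS6 was lost with DESeq2 and without any library other than siC1QBP replicate 1. The cytosolic genes had 37 of 82 and the same median to 2 decimals. MRPS18C had the smallest p of these, with a log2 fold change of -0.68 (SE 0.08).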

How the data were processed

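The authors deposited raw, unnormalized read counts of 58735 genes in 6 libraries, with a gene length column that is no measurement and equals the union of GENCODE release 29 exons for all 58735 genes. The build is hg38, per the submitters' processing notes. Aligner, counter and strand handling were not given in the sources used here, so reads of overlapping genes and of pseudogenes may have been assigned to either copy. No column of per-sample values was left unused.

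Counts were fitted for all genes that passed filterByExpr with edgeR 4.0.16 (R 4.3.3), TMM scaling, the quasi-likelihood test and a single term for treatment, and p-values were adjusted by Benjamini-Hochberg over 15530 genes. The threshold for a call was 0.05. Ratios of paralogue to parent were compared by a two-sided exact permutation test in scipy 1.17.1. No test was made over the list of genes. The fit was tested on simulated data. Some genes are not reported here by name.

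The members and lists were chosen with earlier results of these data known. Named genes were C1QBP, up to 6 called lower genes with the smallest p and every called higher gene of each subunit, the 3 highest uncalled genes per kilobase, paralogues with parents, genes of stated roles, and up to 2 called genes each way per other list. Genes outside that rule (RPS29, RPL39, RPL14 and those named for a level, overlap or pseudogenes) were chosen after their values were seen. Coding length is that of the GENCODE 29 principal transcript. Promoters and start sites came from RefSeq (GRCh38.p14). Alternatives were DESeq2 1.42.0, limma-voom (limma 3.58.1), other scalings, filters and gene sets, a trend on gene length removed, pseudogene reads added, each library left out, a replicate block and an adjusted p under 0.01. A trend on principal transcript length removed and both libraries numbered 1 left out were added after seeing the data.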

Additional observations from a re-analysis of the deposited data

How the results depend on the processing

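With 1 library left out at a time, the genes called lower numbered 21 to 44 and those called higher 0 to 2. Leaving out both libraries numbered 1, chosen after seeing the data, gave 58 lower and 2 higher (12.1% of all tested genes were lower there, against 7.84% in the planned fit). An adjusted p under 0.01 gave 22 lower and 0 higher, where 3.73% of all tested genes were lower. In every other alternative run the count of lower calls stayed within 1.5 times the 37 of the design as planned (from 29 with library size scaling to 52 with the replicate block) and 1 gene was higher. Median log2 fold changes ranged from -0.18 to -0.09 for large and from -0.21 to -0.13 for small subunit genes, none changed sign, and 69 to 78 of the tested fold changes were below 0. Of the 38 calls, 20 held in all 20 alternatives at an adjusted p under 0.05. DESeq2 called 35 lower, 29 of them shared, and 3.57% of its 32169 genes were lower. Library size scaling called 1253 genes higher and 908 lower over the whole table, against 1005 and 1217 with TMM, and upper-quartile scaling 1280 and 946. Replicate numbers are shared between groups in the labels, but over all tested genes same-numbered libraries did not deviate together (correlations 0.043, 0.033 and -0.0094), so they were not taken as pairs. Among ribosomal protein genes, however, replicate 1 had the lowest median of its group in both groups. With the replicate block 52 genes were lower and 1 higher, with medians of -0.14 and -0.18 and 11.3% of all tested genes lower. With 3 libraries a group, an exact test on 1 gene cannot go below 0.1, and falls as small as those of RPL18 and RPL5 lie at the edge of what these libraries resolve.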
